A study of Homo sapiens with 4 samples.

Results

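RNA-seq was used to follow 10 genes of serine, glycine and one-carbon synthesis in MCF10A cells, a non-tumorigenic human breast epithelial line, with and without stable overexpression of HSF1, the transcription factor of the heat shock response. The genes were taken as listed, by symbol in the deposited normalized table and by Ensembl identifier among the 63856 genes of the deposited count table: PHGDH, PSAT1, PSPH, SHMT1, SHMT2, MTHFD1, MTHFD1L, MTHFD2, ALDH1L2 and GLDC. The study asked how a rise in HSF1 changes gene expression in these cells, and compared 2 libraries of wild type cells with 2 libraries of cells that had been transduced with a lentivirus carrying HSF1 cDNA in the pLVX vector and selected with puromycin (HSF1-pLVX). Both variants came from the same line, grown with horse serum, insulin, hydrocortisone and EGF. Wild type cells carried no vector and no empty-vector library was analysed here, so the introduced HSF1 cannot be told apart from transduction, selection or separate culture. The paper calls the replicates biological. The p-values rest on the spread between these libraries pooled over genes of like expression, not on that of each gene alone.

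The pathway starts from the glycolytic intermediate 3-phosphoglycerate, which PHGDH, PSAT1 and PSPH convert to serine in consecutive steps. Serine hydroxymethyltransferases, SHMT1 in the cytosol and SHMT2 in mitochondria, then split serine into glycine and a carbon unit that is carried by tetrahydrofolate. In mitochondria MTHFD2 oxidizes this unit and MTHFD1L releases it as formate, while MTHFD1 takes formate up into the folate pool of the cytosol. The carbon units are used to make purines, thymidylate and methionine. ALDH1L2 burns the mitochondrial unit to carbon dioxide, and GLDC, a subunit of the glycine cleavage system, draws another unit from glycine. Breast tumours that lack the estrogen receptor are known for high PHGDH.

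The libraries held between 18688109 and 24184285 counts. HSF1 itself, which checks the labels, stood at 200.4 and 189.2 CPM in wild type replicates 1 and 2 and at 982.4 and 998.6 CPM in HSF1-pLVX replicates 1 and 2, the order in which values are given throughout. CPM are counts scaled to the library size after TMM normalization, which corrects the sizes for differences in composition. All 10 mammary epithelial markers examined were expressed, but they did not move together. KRT5, TP63, EGFR and ITGA6 were higher in HSF1-pLVX cells (log2 fold changes 1.12, 3.48, 0.84 and 0.44), and KRT14, KRT8, KRT17, KRT18, CDH1 and EPCAM were lower (-3.56, -3.25, -2.56, -1.74, -1.43 and -1.37). Their summed level was 16510 and 16440 CPM in wild type and 8191 and 8597 CPM in HSF1-pLVX libraries. PTPRC, the general leukocyte marker, had 0 counts in every library. Summed over 9 fibroblast markers, the level was 199.3 and 227.2 CPM in wild type and 59.9 and 48.9 CPM in HSF1-pLVX libraries, most of it FAP (191.4 and 216.3 against 44.9 and 35.0 CPM). In the same list DCN went from 1 and 3 counts to 94 and 87 counts, COL1A1 was not called (log2 fold change 0.20, adjusted p = 0.287), and COL1A2, COL3A1, LUM and THY1 never had more than 3 counts. Over 5 endothelial markers the sum was 3.14 and 2.10 against 13.4 and 14.7 CPM, most of it KDR (1.86 and 1.45 against 12.3 and 12.9 CPM). PECAM1 had 7 and 1 counts in wild type and 9 and 23 in HSF1-pLVX libraries, and TEK had 2 and 3 against 8 and 7. CDH5 and VWF had at most 8 and 7 counts in any library. The part of these marker genes in the results was not tested.

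**Figure D1:**
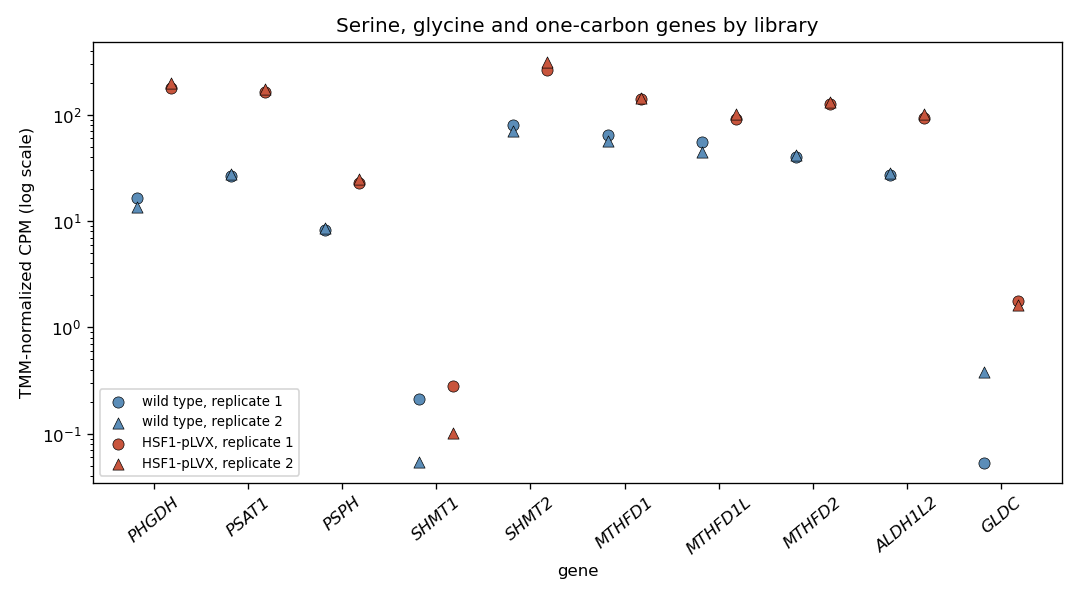
Level of each gene in each of the 4 libraries, in TMM-normalized CPM on a log axis, with circles for replicate 1 and triangles for replicate 2. The HSF1-pLVX libraries lie above both wild type libraries for every gene but SHMT1, which stays under 0.3 CPM in all 4 libraries. The same held for 42.1% of all tested genes, and for GLDC it was fixed by the filter on low counts.

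In HSF1-pLVX cells, 9 of the 10 genes were higher than in wild type cells and SHMT1 had too few counts to be tested. The log2 fold changes ran from 0.95 for MTHFD1L to 3.65 for PHGDH, with a median of 1.81. Of all 15830 tested genes, 32.5% were called higher at an adjusted p of 0.05, and the median of all was 0.02. A change of more than 2-fold was reached by 8 of the genes, all but MTHFD1L and SHMT1, against 14.9% of all tested genes. Among these 9, GLDC passed the filter on low counts only through its HSF1-pLVX libraries, so it could hardly have been tested without being higher there. Added up, the 10 genes went from 318.4 and 292.5 CPM in the wild type libraries to 1086 and 1188 CPM in the HSF1-pLVX libraries. The test was edgeR's quasi-likelihood test with replicate number as a block, in which each gene keeps a single residual degree of freedom and the spread is taken from genes of like expression, which makes the p-values very small. Without the block, the adjusted p-values of the 9 genes lay between 5.84e-12 (PHGDH) and 0.000116 (GLDC).

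All 3 genes of serine synthesis rose, PHGDH with the largest fitted change. PHGDH (ENSG00000092621.11, chromosome 1 of hg38, 119659798 to 119744215), the dehydrogenase of the first step, stood at 16.4 and 13.7 CPM in wild type replicates 1 and 2 and at 179.9 and 197.3 CPM in HSF1-pLVX replicates 1 and 2. Both HSF1-pLVX libraries were thus far above both wild type libraries. The fitted rise was 3.65 on the log2 scale (standard error 0.122, adjusted p = 2.19e-189), or 12.5-fold, and the ratio was 11 within replicate 1 and 14.4 within replicate 2. By fitted fold change PHGDH was number 121 of the 15830 tested genes, counted from the largest rise.

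PSAT1 (ENSG00000135069.13, chromosome 9, 78297143 to 78330093), the aminotransferase of the next step, was measured at 26.6 and 27.4 CPM in wild type libraries and at 164.1 and 173.2 CPM in HSF1-pLVX libraries. The replicates of each variant lay within a few percent of each other, and the log2 fold change was 2.64 (standard error 0.114, adjusted p = 1.29e-115). PSPH (ENSG00000146733.13, chromosome 7, 56011051 to 56051604), the phosphatase that releases serine, was measured at 8.20 and 8.61 CPM in wild type and 22.6 and 25.1 CPM in HSF1-pLVX libraries. It rose by 1.5 on the log2 scale (standard error 0.140, adjusted p = 1.45e-25). The stretch before the RefSeq start of PSAT1 is shown because PSAT1 rose with so little spread between replicates, and it overlaps no annotated exon (GRCh38.p14, chr9:78296875-78297124, plus strand, 250 bases, with none of the motifs described below).
PSAT1: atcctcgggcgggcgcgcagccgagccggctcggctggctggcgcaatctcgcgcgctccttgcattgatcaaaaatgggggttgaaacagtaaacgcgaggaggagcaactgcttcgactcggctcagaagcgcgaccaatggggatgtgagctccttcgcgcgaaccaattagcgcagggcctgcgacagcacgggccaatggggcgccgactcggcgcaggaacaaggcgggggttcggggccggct

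**Figure D2:**
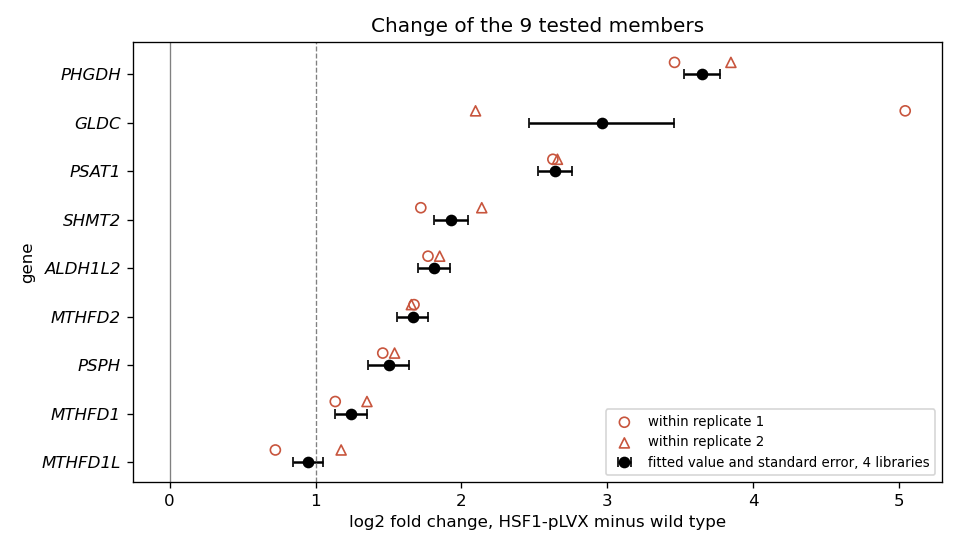
Log2 fold change of the 9 tested genes, HSF1-pLVX minus wild type, with filled points for the fitted value, bars for its standard error and open symbols for the ratio within each replicate number. The dashed line marks a 2-fold rise, which PHGDH (3.65) exceeds furthest and MTHFD1L (0.95) just misses.

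Among the mitochondrial enzymes, SHMT2 (ENSG00000182199.10, chromosome 12, 57229327 to 57234935) had the highest level per length in both variants, and in CPM it stood at 80.4 and 70.6 CPM in wild type cells and 265.1 and 311.0 CPM in HSF1-pLVX cells. The groups were well apart although the HSF1-pLVX libraries differed from each other, and the log2 fold change was 1.93 (standard error 0.117, adjusted p = 1.25e-58). MTHFD2 (ENSG00000065911.11, chromosome 2, 74198562 to 74217565), known as an embryonic enzyme that tumours express again, rose from 39.7 and 41.9 CPM to 126.9 and 132.0 CPM, a log2 fold change of 1.67 (standard error 0.107, adjusted p = 7.87e-53). Its ratio was nearly equal in the replicates, at 3.19 and 3.15. ALDH1L2 (ENSG00000136010.13, chromosome 12, 105019784 to 105084577) rose from 27.1 and 28.4 CPM to 92.3 and 102.5 CPM, or by 1.81 on the log2 scale (standard error 0.107, adjusted p = 5.71e-62).

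The smallest rise was that of MTHFD1L (ENSG00000120254.15, chromosome 6, 150865549 to 151101887), from 55.6 and 44.9 CPM in wild type to 91.9 and 101.4 CPM in HSF1-pLVX libraries. The groups did not overlap, which held in this direction for 42.1% of all tested genes. It rose by 0.95 on the log2 scale (standard error 0.104, adjusted p = 4.86e-19), and its ratio was 1.65 within replicate 1 and 2.26 within replicate 2. Whether MTHFD1L counted as more than 2-fold higher depended on the scaling, since its log2 fold change was 1.03 with upper-quartile normalization and 1.01 with library size alone. It also passed 1 without wild type replicate 1 (1.12) and without HSF1-pLVX replicate 1 (1.02).

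MTHFD1 (ENSG00000100714.15, chromosome 14, 64388031 to 64463457), the cytosolic partner that joins formate to tetrahydrofolate, rose from 64.2 and 56.5 CPM to 141.0 and 144.3 CPM. The log2 fold change was 1.24 (standard error 0.107, adjusted p = 5.01e-30). The HSF1-pLVX libraries were close together and well above the wild type libraries.

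GLDC (ENSG00000178445.9, chromosome 9, 6532464 to 6645783), the glycine decarboxylase, was the faintest gene that could be tested, with 1 and 7 counts in wild type libraries and 44 and 32 counts in HSF1-pLVX libraries. In CPM these are 0.0533 and 0.377 against 1.75 and 1.61. The groups did not overlap, but this and the direction were fixed by the filter on low counts, which GLDC passed only through its HSF1-pLVX libraries. The fitted rise was 2.96 on the log2 scale (standard error 0.497, adjusted p = 9.93e-09). The size of this change rested on the wild type counts, as it was 2.16 without wild type replicate 1 and 4.82 without wild type replicate 2.

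SHMT1 (ENSG00000176974.19, chromosome 17, 18327860 to 18363563) had 4 and 1 counts in wild type libraries and 7 and 2 counts in HSF1-pLVX libraries. The variants overlapped, the gene did not pass the filter, and no fold is given. The counts were low over the whole neighbourhood and not in SHMT1 alone. From FLII to LGALS9C, the 6 other protein-coding genes, which include TOP3A and SMCR8, held at most 35 counts in any library and 3 or fewer apart from FLII. LLGL1, next to FLII on the far side from SHMT1, held between 684 and 835 counts.

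These 6 neighbours also have a counterpart with the same exon lengths on a contig outside the main chromosomes, and all 28 genes of that contig together held 29 counts over the 4 libraries. SHMT1 has no annotated counterpart of this kind there, but MIR6778, a microRNA gene inside SHMT1, does. Across the table, 169 of 191 protein-coding genes with a contig gene of identical exon lengths had 12 or fewer counts in all 4 libraries together (88.5%), against 24.1% of 16966 such genes without one. How reads that align to both places were counted is not given in the sources used here. The level of SHMT1 is therefore uncertain, and the part of the contig in it was not tested. None of the other 9 genes had a contig gene sharing 80% of its exon lengths.

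**Figure D3:**
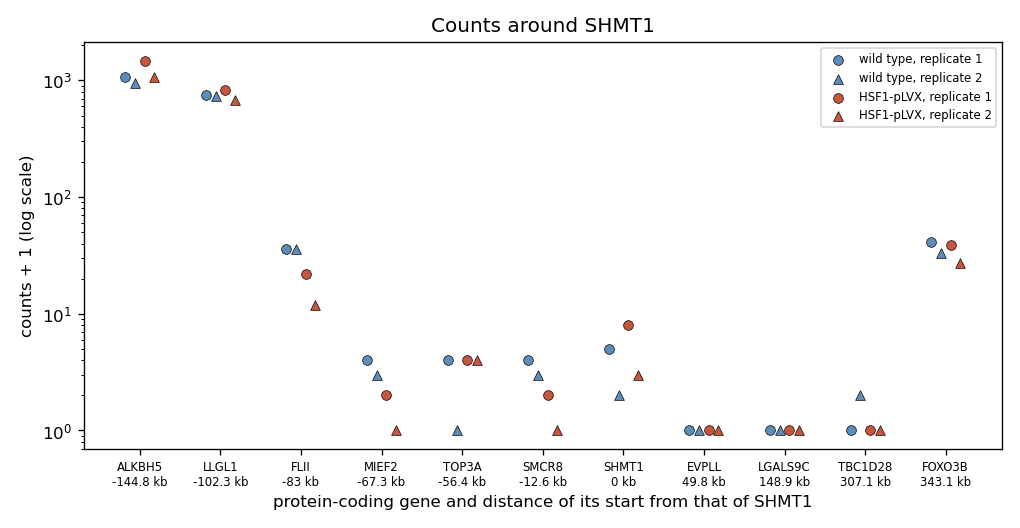
Counts plus 1, on a log axis, of protein-coding genes around SHMT1 in the 4 libraries, ordered along the chromosome and labelled with the distance of each start from that of SHMT1 in kilobases. Counts fall from 684 or more at LLGL1 to 35 or fewer between FLII and TBC1D28, in wild type and HSF1-pLVX cells alike.

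Per kilobase of counted gene length, the order of the genes differed between the variants. In wild type cells SHMT2 was highest, at 15.6 ± 1.43 CPM per kilobase (SD, n = 2), followed by PSAT1 (12.3 ± 0.280), MTHFD1L (10 ± 1.51), MTHFD2 (8.38 ± 0.309) and MTHFD1 (6.44 ± 0.579). ALDH1L2 (3.26 ± 0.113), PSPH (3.04 ± 0.104) and PHGDH (2.68 ± 0.331) came next and lay close together. GLDC (0.0240 ± 0.0256) and SHMT1 (0.0183 ± 0.0155) overlapped each other at the bottom. In HSF1-pLVX cells PSAT1 was highest (77.1 ± 2.94), followed by SHMT2 (59.5 ± 6.71), PHGDH (33.5 ± 2.18), MTHFD2 (26.6 ± 0.739), MTHFD1L (19.3 ± 1.33), MTHFD1 (15.2 ± 0.250), ALDH1L2 (11.4 ± 0.848) and PSPH (8.63 ± 0.636). PHGDH, which in wild type cells lay with PSPH at the lower end of the 8 more abundant genes, was the third in HSF1-pLVX cells. The means differed by less than the sum of the SDs for MTHFD1L and MTHFD2 and for PSPH and PHGDH in wild type cells, so these neighbours in the order were not distinguished. The order depends on the length used, which takes in all exons counted for a gene (5622 bases for PHGDH and 2188 for PSAT1). By mean CPM in HSF1-pLVX cells, SHMT2 (288.0) was highest, followed by PHGDH (188.6) and PSAT1 (168.6).

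Ratios between enzymes of the same step were taken within each library, where scaling between libraries plays no part. The log2 ratio of mitochondrial MTHFD2 to cytosolic MTHFD1, on counts per kilobase, was 0.25 and 0.51 in wild type libraries and 0.79 and 0.82 in HSF1-pLVX libraries. That of MTHFD1L to MTHFD1 went the other way, from 0.69 and 0.57 to 0.28 and 0.39. In both pairs the variants did not overlap. The sign of such a ratio depends on the counted gene lengths, while its change between libraries does not.

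MTHFD2L, a paralog of MTHFD2, had the larger fitted change, and the log2 ratio of MTHFD2 to it went from 4.43 in both wild type libraries to 4.02 and 3.92. The log2 ratio of ALDH1L2 to its cytosolic paralog ALDH1L1 went from 6.87 and 7.41 to 6.38 and 6.32, with 7 and 5 counts of ALDH1L1 in the wild type libraries. The exact two-sided permutation test gave p = 0.33 for each of these 4 pairs, the smallest value that 4 libraries allow. The ratio of SHMT2 to SHMT1 cannot be interpreted because of the SHMT1 counts.

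**Figure D4:**
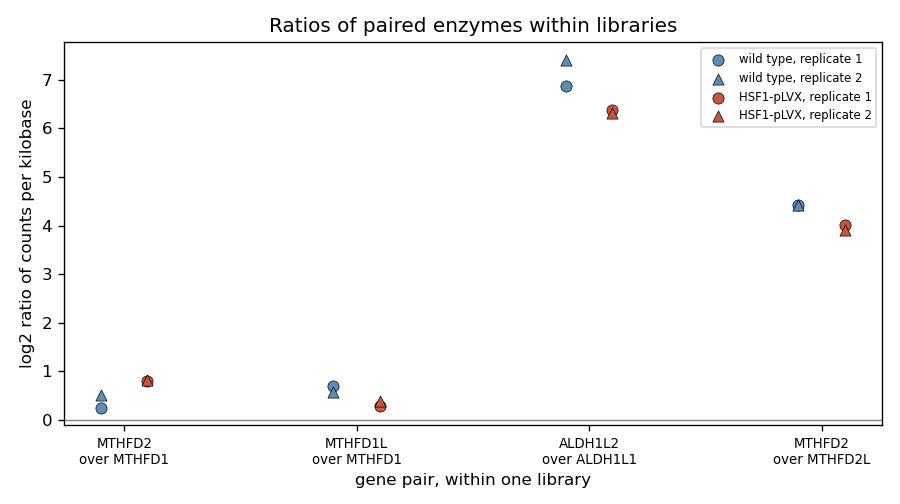
Log2 ratio of the counts per kilobase of paired enzymes within each library, for wild type and HSF1-pLVX replicates. MTHFD2 over MTHFD1 is higher in HSF1-pLVX libraries (0.79 and 0.82 against 0.25 and 0.51), and the other 3 ratios are lower there.

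The promoters were searched for letters read by HSF1 and by known regulators of the pathway, in the 250 bases before each RefSeq start (GRCh38.p14) and on both strands. Promoters were found for 7 of the 10 genes, not for PSPH, SHMT2 and ALDH1L2. The pair of inverted heat shock units (GAANNTTC or TTCNNGAA) was found in 11.6% of 35116 promoter entries, the run of 3 alternating units, which always contains such a pair, in 0.441%, the ATF4 composite element (TGATGNAA) in 3.14% and the E-box CACGTG, which MYC can bind, in 6.34%. No heat shock pair was found in the windows of these 7 genes. MTHFD1L held the ATF4 element and an E-box before its first listed start, and MTHFD1 held an E-box. The stretches with these matches are shown with the matches in capitals (chr6:150866236-150866385 for MTHFD1L, with the E-box first and the ATF4 element after it, and chr14:64388323-64388352 for MTHFD1, both plus strand).
MTHFD1L: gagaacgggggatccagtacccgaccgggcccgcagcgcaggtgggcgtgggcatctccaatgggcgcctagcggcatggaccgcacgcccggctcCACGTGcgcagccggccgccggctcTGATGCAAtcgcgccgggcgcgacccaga
MTHFD1: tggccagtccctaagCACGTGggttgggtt
A match describes the letters and shows no binding, and the lack of one says only that these letters are not in the window. The end of the MTHFD1L stretch and the whole MTHFD1 stretch lie in first exons of other annotated transcripts of these genes.

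Of the 5 regulators, 3 rose, 1 fell and EIF2AK4, the amino acid sensing kinase, was not called (log2 fold change 0.02, adjusted p = 0.906). Over all tested genes, 32.5% were called higher and 32.7% lower. ATF4, the transcription factor best known for inducing serine synthesis, stood at 231.8 and 242.4 CPM in wild type and 486.9 and 570.2 CPM in HSF1-pLVX libraries, a log2 fold change of 1.15 (standard error 0.130, adjusted p = 5.80e-18). MYC went from 80.5 and 89.9 CPM to 535.8 and 523.6 CPM, which is 2.64 on the log2 scale (standard error 0.132, adjusted p = 1.28e-86). NFE2L2, the antioxidant regulator NRF2, rose by 0.55 on the log2 scale (adjusted p = 8.11e-07). EIF2AK3, the kinase PERK of the endoplasmic reticulum, fell by 1.68 on the log2 scale (adjusted p = 1.67e-47).

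In 6 lists of genes around the pathway, 48 of 56 genes outside the 10 could be tested, and 27 of these passed the adjusted p of 0.05 as higher and 9 as lower in HSF1-pLVX libraries. More than 2-fold higher were 13 and more than 2-fold lower were 2, and the median log2 fold change was 0.46. These rises include ALDH1L1 and CBS, which passed the filter on low counts only through their HSF1-pLVX libraries. Among all tested genes, 32.5% were called higher and 32.7% lower. More than 2-fold higher were 14.9%, and more than 2-fold lower were 14%. The 48 genes thus held more rises than falls, in lists chosen with earlier results of these data known. The counts of each list below are to be read against these same shares.

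Of the other subunits of the glycine cleavage system, 1 rose. DLD, a subunit shared with other dehydrogenase complexes, rose by 0.36 on the log2 scale (adjusted p = 0.000835), GCSH had a log2 fold change of -0.03 (adjusted p = 0.927), and AMT, with 8 and 4 counts in wild type and 20 and 10 in HSF1-pLVX libraries, was not tested.

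Of 12 other tested folate genes, 8 rose and 2 fell, against 32.5% and 32.7% of all tested genes. TYMS, which uses the carbon unit to make thymidylate, went from 15.2 and 14.6 CPM to 62.1 and 63.3 CPM (log2 fold change 2.07, standard error 0.116). MTHFD2L went from 3.73 and 3.93 to 15.8 and 17.6 CPM (2.12, standard error 0.173). ALDH1L1, with 7 and 5 counts in wild type and 45 and 41 counts in HSF1-pLVX libraries, is counted among the rises but was tested only because of the latter. FPGS, which adds glutamates to folates, was among those that fell, with a log2 fold change of -0.50. MTR, the methionine synthase, was not called (adjusted p = 0.0701).

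In purine synthesis, which takes up carbon units as formyl-tetrahydrofolate, 7 of 8 genes rose, against 32.5% of all tested genes. PRPS1 fell, and the median log2 fold change of the list was 1.04. PAICS went from 75.4 and 73.8 CPM to 262.3 and 258.2 CPM (log2 fold change 1.80, standard error 0.115). PFAS (1.49), PPAT (1.23), GART (1.09) and PRPS2 (1.0) also passed 2-fold, while PRPS1 had -0.68.

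Of 12 carriers of serine, glycine or folate, 5 rose, 2 fell and 5 were not called. Over all tested genes, 32.5% were called higher and 32.7% lower. The neutral amino acid carriers SLC1A5 and SLC1A4 rose most, SLC1A5 from 63.3 and 53.9 CPM to 301.6 and 360.4 CPM (log2 fold change 2.50, standard error 0.122) and SLC1A4 from 5.59 and 6.46 to 27.0 and 30.4 CPM (2.25, standard error 0.144). The folate receptor FOLR1 fell from 10.7 and 9.04 CPM to 0.717 and 0.554 CPM (-3.94, standard error 0.266), whereas the reduced folate carrier SLC19A1 rose (0.98, adjusted p = 3.05e-11). The mitochondrial serine carrier SFXN1 had a log2 fold change of 0.17 (adjusted p = 0.121).

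In the methionine cycle and transsulfuration 5 of 7 tested genes rose, against 32.5% of all tested genes, and AHCYL2 fell (log2 fold change -1.04). CBS, which joins serine to homocysteine, went from 0.373 and 0.592 CPM to 4.98 and 3.37 CPM (3.09, standard error 0.350). CBS is counted among the rises but was tested only because of its HSF1-pLVX libraries. It also has a near-identical copy on the same chromosome, and its level is uncertain. CTH, the next enzyme, had between 26 and 82 counts per library and a log2 fold change of 1.05. Among 7 tested enzymes that use serine, 1 rose and 3 fell, and none passed 2-fold, where 32.7% of all tested genes were called lower. SPTLC2, which starts sphingolipid synthesis from serine, was among those that fell (log2 fold change -0.97).

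**Figure D5:**
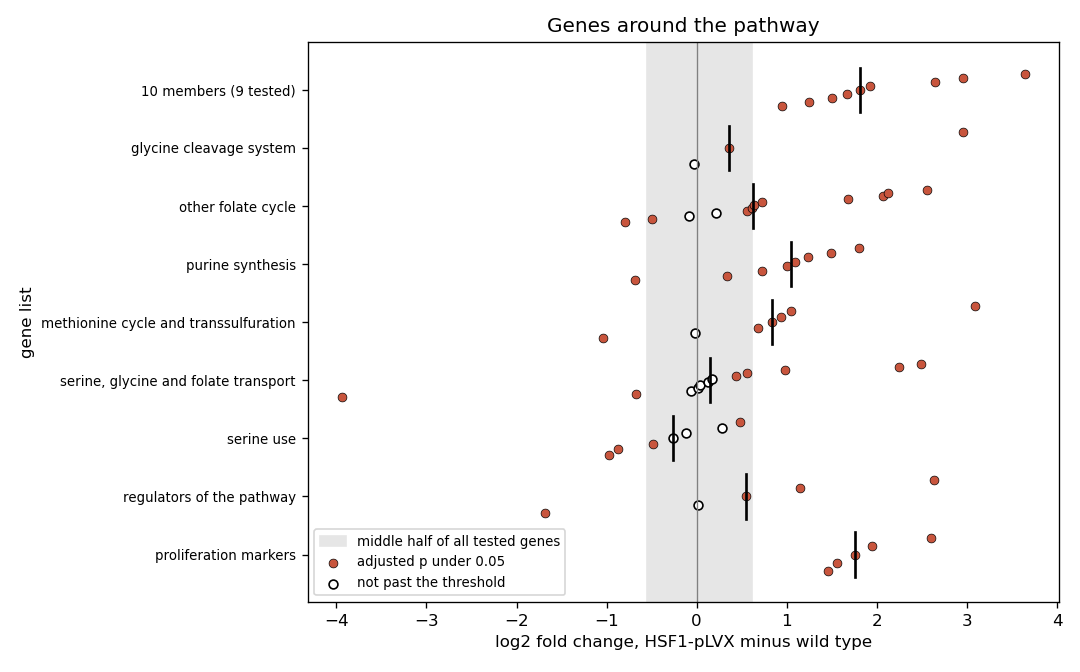
Log2 fold change, HSF1-pLVX minus wild type, of each tested gene in the lists around the pathway, with filled points past an adjusted p of 0.05, open points not past it, a bar at each list's median and a grey band for the interquartile range of all tested genes. The 9 tested genes lie right of the band (0.95 to 3.65), as do the 5 proliferation markers, while the genes that use serine centre on -0.26.

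The 5 proliferation markers moved in the same direction as the pathway, and their summed level went from 224.0 and 180.1 CPM in wild type libraries to 784.4 and 684.4 CPM in HSF1-pLVX libraries. Each of MKI67, PCNA, TOP2A, MCM2 and CCNB1 was more than 2-fold higher. These are RNA levels, and the paper, which followed growth by crystal violet staining, reports no effect of HSF1 overexpression on the proliferation of MCF10A cells. The paper also reports enlarged spheroids in Matrigel, and lists DNA replication among the pathways enriched in its up-regulated genes. The part of proliferation in the rise of the pathway genes was not tested.

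By the rule the study used, which asks for a ratio of more than 2 in each replicate pair of normalized values, 8 of the 10 genes were up-regulated and 0 were down-regulated, against 5% and 6.42% of all 22321 genes in that table. The paper, from the same libraries, lists serine and glycine biosynthesis among the pathways enriched in its up-regulated genes. PHGDH had ratios of 10.2 and 13.5 and PSAT1 of 5.83 and 6.11. MTHFD1L failed with 1.59 and 2.22, and SHMT1 failed as well. GLDC passed with 4.13 and 2.24, though on CPM plus 1 its ratios were 2.61 and 1.90.

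Reads of close copies could disturb these values. Of the pseudogenes named after the 10 genes, 15 are in the count table, and the largest count among them was 12, for MTHFD2P7. The exons of MTHFD2 overlap those of SLC4A5 on the opposite strand over 1324 bases, and SLC4A5 had between 6 and 14 counts per library. Those of MTHFD1 overlap over 756 bases an unnamed antisense gene with between 6 and 42 counts. Of the shorter overlaps, 2 were with genes of higher counts. MTHFD1 shares 178 exon bases with ZBTB25, which had 98 and 123 counts in wild type and 320 and 263 in HSF1-pLVX libraries, and ALDH1L2 shares 145 with NOPCHAP1, which had 240 and 241 against 487 and 357. The strand setting of the counting is not given in the sources used here, and how many reads these genes share was not tested.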

How the data were processed

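Sample titles gave the variant and replicate of the 4 libraries. The authors deposited raw counts per gene from paired-end reads aligned to hg38 with HISAT2 2.0.5, processed with SAMtools 1.13 and counted with featureCounts 1.6.5, and a second table of log2-like values normalized with DESeq2 1.32.0. The strand and multi-mapping settings are not given in the sources used here. A blind variance-stabilizing transformation in DESeq2 gave the deposited log2 values of the 10 genes to within 4.8e-05.

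The test was the quasi-likelihood test of edgeR 4.0.16 under R 4.3.3 (TMM, filterByExpr defaults, Benjamini-Hochberg adjustment over 15830 genes). Replicate number entered as a block, since ratios in the study are taken within it. Symbols came from GENCODE 44, and promoters from RefSeq. Same-numbered libraries did not deviate together (correlation 0.000143 over all tested genes and -0.113 over the 9672 with a mean above 8 CPM). Replicates differed by more than sampling noise (chi-square per degree of freedom 6.62 and 8.04). On simulated counts of about 15400 genes the test recovered 87.6% of changed genes, 77.6% of those changed 2-fold, and 3.4% of its calls were false. The simulation changed far fewer genes than were called in the real data and took its spread from the same fit. It therefore checks that the test runs as meant and gives no error rate for these data.

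Alternatives covered normalization, filter, test, block, each library left out and, added after seeing the data, the main chromosomes only. The 10 genes and all lists were chosen with earlier results of these data known. Values are given for every one of the 10 genes, for list genes past 2-fold and for the regulators, except that some list genes are counted but not reported here by name. A gene with 3 counts or fewer in a library was treated as at the floor there.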

Additional observations from a re-analysis of the deposited data

How the results depend on the processing

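The 9 tested genes of the pathway were called higher under all 12 alternatives, the fit with no replicate block and the fits without 1 library included, and 0 were called lower. With a library left out, the lone library of a variant was assumed to vary like the others, and the largest adjusted p was 0.0365, for GLDC without HSF1-pLVX replicate 2. The number more than 2-fold higher was 8 or 9, MTHFD1L being the gene that changed sides. The number past the study's ratio rule was 8, and 7 on CPM plus 1, where GLDC was lost. Over all genes, 3101 genes were called higher by DESeq2 (Wald test, replicate block kept) against 5138 in edgeR, and the cause was not tested. Of the genes around the pathway, 2 were more than 2-fold lower, and 1 when libraries were scaled by size alone. The block changed no call of the 10 genes. With 4 libraries, counts as low as those of GLDC and SHMT1 set the limit on what can be read from them. GLDC passed the filter on low counts only through its HSF1-pLVX libraries. In the fits that used this filter, it could hardly have been called other than higher.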

Other observations

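The 5 tested genes whose centred log2 CPM over the 4 libraries lay nearest to the mean profile of the 9 tested genes were HNRNPA1L3 (distance 0.0277), HNRNPA1P4 (0.0664), TMPRSS4 (0.0673), RPL22L1 (0.0688) and PRANCR (0.0740). TMPRSS4, which encodes a serine protease of the cell membrane, stood at 18.8 and 19.2 CPM in wild type libraries and at 73.5 and 76.9 CPM in HSF1-pLVX libraries. RPL22L1, which encodes a ribosomal protein paralog, stood at 37.6 and 41.1 against 155.6 and 173.4 CPM. HNRNPA1L3 and HNRNPA1P4 are copies of HNRNPA1, so their reads are uncertain, and PRANCR, at 0.160 and 0.162 CPM in wild type libraries, passed the filter only through its HSF1-pLVX libraries (0.916 and 1.01 CPM). The likeness is over 4 libraries and mostly describes a change of similar size.

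MTAP, the methionine salvage enzyme, had 12 and 8 counts in wild type libraries and 6 and 4 counts in HSF1-pLVX libraries, and did not pass the filter.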
